A study of Mus musculus with 28 samples.

Results

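Enpep, Anpep, Alpl and Dpp4 encode 4 enzymes whose active sites face the outside of the cell, and their RNA was followed across single mouse embryos that differ in Ctcf. The 4 genes were chosen by name, with earlier results of these embryos known, out of 17995 genes found in either of the deposited expression tables. The 3 blastocyst comparisons with MZ_KO embryos count as used in that choice, so values there are given as a description with no p for these genes. The blastocysts comprised 3 labelled WT_flfl, 4 het, 4 M_KO and 3 MZ_KO, and the morulae 3 het, 4 del and 6 MZKO. All embryos were of the CD1 strain, and each library held the polyadenylated RNA of 1 whole embryo. The labels leave these genotype codes unexplained. In this field M usually stands for loss of the maternal supply and MZ for loss of maternal and zygotic product, whereas the meaning of del and the Cre driver are not given in the sources used here. Embryonic day stands in the names of the deposited tables, as 2.5 for morulae and 3.5 for blastocysts. Embryo numbers below are those in the sample titles. MZ_KO and M_KO blastocysts carry the title prefix C7, and WT_flfl and het blastocysts carry N89. Among morulae the prefix is C50 for MZKO and N2 for both del and het. Every comparison between prefixes therefore cannot be told apart from the prefix.

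These enzymes trim or dephosphorylate molecules at the cell surface, and in adult kidney and intestine they are classical brush border enzymes of the apical membrane. Enpep (aminopeptidase A) removes acidic residues from peptide ends and is known for shortening angiotensin II. Anpep (aminopeptidase N, CD13) removes neutral residues and belongs to the same M1 family of zinc peptidases. Dpp4 (CD26) is a serine peptidase that releases dipeptides ending in proline or alanine, and incretin hormones are among its substrates. Alpl is tissue-nonspecific alkaline phosphatase, held in the membrane by a glycosylphosphatidylinositol (GPI) lipid anchor, and it acts on pyrophosphate and on the phosphate form of vitamin B6. Alkaline phosphatase activity is a long-used mark of pluripotent and germ cells. In the blastocyst the outer trophectoderm is a polarised epithelium with microvilli on its apical face. CTCF, the protein of the gene deleted here, is a zinc finger factor that binds insulators and stops cohesin at the base of loops.

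All 4 genes lie on minus strands of the GRCm38 build in the GENCODE M21 annotation, and each is protein coding. Enpep (ENSMUSG00000028024) spans chr3:129269175-129332720, Anpep (ENSMUSG00000039062) chr7:79821803-79861059, Alpl (ENSMUSG00000028766) chr4:137741733-137796384 and Dpp4 (ENSMUSG00000035000) chr2:62330073-62412231. The promoters of the 3 genes that were low in MZ_KO blastocysts are shown because the deleted factor binds DNA. Each sequence is the 250 bases before the RefSeq start (GRCm38.p6), read 5′ to 3′ on the gene's own strand, which is the minus strand of the chromosome. Capitals mark a match to AGGGGGC, a word from the core of the CTCF motif.
Enpep, chr3:129332750-129332999: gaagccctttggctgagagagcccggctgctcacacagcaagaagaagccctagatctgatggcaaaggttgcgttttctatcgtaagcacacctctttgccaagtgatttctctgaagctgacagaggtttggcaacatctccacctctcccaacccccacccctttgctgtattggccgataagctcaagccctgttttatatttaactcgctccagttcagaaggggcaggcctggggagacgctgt
Alpl, chr4:137796385-137796634: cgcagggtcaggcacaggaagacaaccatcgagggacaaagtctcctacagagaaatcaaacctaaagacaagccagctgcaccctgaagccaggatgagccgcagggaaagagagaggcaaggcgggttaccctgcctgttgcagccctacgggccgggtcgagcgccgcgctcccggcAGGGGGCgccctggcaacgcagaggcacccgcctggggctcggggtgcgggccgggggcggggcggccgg
Dpp4, chr2:62412232-62412481: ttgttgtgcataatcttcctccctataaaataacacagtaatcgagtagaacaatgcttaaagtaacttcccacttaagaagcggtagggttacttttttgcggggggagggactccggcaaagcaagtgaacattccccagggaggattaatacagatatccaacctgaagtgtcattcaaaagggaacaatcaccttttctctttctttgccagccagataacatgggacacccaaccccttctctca
The words AGGGGGC and AGGTGGC were searched on both strands of windows of 300 bases, the 250 bases above and the 50 bases after the start. The upstream Alpl promoter held AGGGGGC on the gene's strand, 70 bases before the start. None of the windows of Enpep, Dpp4, Anpep (upstream part chr7:79848211-79848460) or the second, downstream Alpl promoter (chr4:137766476-137766725) held either word. Of 32851 mouse promoter windows, 10.6% held AGGGGGC, 6.15% held AGGTGGC and 16.01% held either. The Alpl match lies inside the longer word CAGGGGGCG, which was chosen after the sequence was seen and which 1.67% of windows hold. The windows also differed in CpG content. Anpep had 28 CpG and upstream Alpl 26, against 7 in Enpep, 4 in Dpp4, 4 in the downstream Alpl promoter and a median of 7 over all windows. A match is a description of the letters, and no binding was measured here.

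The blastocyst libraries held 7377302 to 27883060 reads and the morula libraries 1635553 (del 6) to 20414013, and del 6 was by far the shallowest. Ctcf lay between 2.92 and 4.23 counts per 1000000 reads (CPM) in MZ_KO blastocysts and between 53.2 and 102 CPM in the other blastocysts. It lay between 0 and 8.68 CPM in MZKO and del morulae and between 26.1 and 54.6 CPM in het morulae, so the level followed the labels. Trophectoderm, epiblast and primitive endoderm markers were all found in blastocysts except Sox7, which was at 0 or not listed in every group. Blood markers, mainly haemoglobin, were highest in WT_flfl 1 (34675 CPM summed) and het 6 (32053 CPM) among blastocysts. Among morulae het 1 (16180 CPM) and MZKO 1 (4169 CPM) were highest. Because each library is a whole embryo, fewer cells of a type and less RNA per cell cannot be told apart for any gene below.

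Enpep was abundant in blastocysts with Ctcf and nearly missing from MZ_KO. It stood at 245, 336 and 313 CPM in WT_flfl 1, 7 and 9. It stood at 128, 287, 366 and 313 CPM in het 3, 5, 6 and 8. The 3 MZ_KO embryos held 4.21, 0 and 6.86 CPM (embryos 2, 6 and 7), from 101, 0 and 186 reads. No MZ_KO embryo came near any other blastocyst, and the 0 reads of MZ_KO 6 allow up to 0.138 CPM, a limit of 3 reads that covers counting error only. For this gene, and for Alpl and Dpp4 below, the share of all genes with such a separation of MZ_KO was not counted. The means were 298 ± 47.2 CPM in WT_flfl, 274 ± 103 in het and 3.69 ± 3.46 in MZ_KO (SD, n = 3, 4 and 3). The mean of MZ_KO was thus 80.8-fold below WT_flfl and 74.2-fold below het. On the log2(CPM + 1) scale, where 1 CPM is added before the logarithm and folds of low genes are understated, Enpep differed by −6.43 from WT_flfl (SE 0.54), by −6.21 from het (SE 0.50) and by −5.13 from M_KO (SE 0.50). It ranked 2 of 9585 genes from the most lowered end against WT_flfl, 2 against het and 4 against M_KO, ranks given as a description only. The comparisons with MZ_KO share the same MZ_KO embryos. Enpep reached 10 CPM, the level the filter asked for, in 11 of 14 blastocysts, none of them MZ_KO.

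M_KO embryos, which carry Ctcf reads at levels of 53.2 to 89.4 CPM, had a mean Enpep level between those of MZ_KO and of the WT_flfl and het groups. The values were 126, 142, 89.8 and 127 CPM in M_KO 1, 3, 4 and 5. All 4 lay below every WT_flfl embryo, whereas het 3 lay among them. How many other genes separate M_KO from WT_flfl in this way was not counted, and these groups also differ in title prefix. The mean of 121 ± 22.3 CPM (SD, n = 4) was 2.46-fold below WT_flfl and 2.25-fold below het. Against WT_flfl the log2 difference was −1.30 (SE 0.50), which did not pass limma's test over all genes (adjusted p = 0.875, unadjusted p = 0.0202). An exact two-sided permutation test gave p = 0.0571, the smallest that 4 against 3 embryos allow. In M_KO against WT_flfl 0% of 9585 genes passed by limma or by limma-voom, and 494 had an unadjusted limma p under 0.05. In that comparison Enpep ranked 136 from the most lowered end. Against het the log2 difference was −1.08 (SE 0.47, limma adjusted p = 0.722, exact permutation p = 0.0571). There too 0% of genes passed by either tool, with 638 at an unadjusted limma p under 0.05. Het and WT_flfl differed by −0.21 (SE 0.50, limma adjusted p = 0.999), within an interval of 2 SE from −1.22 to 0.80, and 0% of genes passed by either tool, with 187 at an unadjusted limma p under 0.05.

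Alpl was the most abundant of the 4 in blastocysts and was also low in MZ_KO. WT_flfl 1, 7 and 9 held 384, 408 and 565 CPM. Het 3, 5, 6 and 8 held 310, 569, 451 and 435 CPM. M_KO 1, 3, 4 and 5 held 327, 987, 440 and 536 CPM. These 3 groups overlapped throughout, with M_KO 3 highest. MZ_KO 2, 6 and 7 held 37.8, 55.2 and 26.5 CPM, all below the lowest other blastocyst but all still above 10 CPM. The MZ_KO mean of 39.9 ± 14.5 CPM (SD, n = 3) was 11.4-fold below the WT_flfl mean of 452 ± 98.5 CPM (SD, n = 3). On the log2(CPM + 1) scale the differences were −3.51 from WT_flfl (SE 0.33), −3.46 from het (SE 0.31) and −3.75 from M_KO (SE 0.31), at ranks 45, 54 and 27 from the most lowered end. The log2 difference of M_KO was 0.24 from WT_flfl (SE 0.31, limma adjusted p = 0.982, exact permutation p = 0.686) and 0.28 from het (SE 0.29, limma adjusted p = 0.886, exact permutation p = 0.543). Without M_KO 3 these became −0.07 and −0.02. M_KO 3 also held the highest summed granulosa markers of any blastocyst (313 CPM, with Amh, Foxl2, Fshr, Cyp19a1 and Inhba at 0 or not listed), and their part in its Alpl value was not tested. Of the 8 granulosa markers only 1, Hsd3b1, passed the filter in blastocysts.

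Dpp4 was a low transcript that was close to 0 in MZ_KO. WT_flfl 1, 7 and 9 held 12.2, 20.6 and 18.4 CPM. Het 3, 5, 6 and 8 held 39.2, 17.3, 15.3 and 6.97 CPM. M_KO 1, 3, 4 and 5 held 34.99, 5.32, 23.4 and 9.65 CPM. The values spread widely within het and M_KO, and the 3 groups overlapped. MZ_KO 2 held 2.29 CPM from 55 reads, and MZ_KO 6 and 7 held 0.0459 and 0.0369 CPM from 1 read each. All 3 were below the lowest other blastocyst, M_KO 3. The log2 differences of MZ_KO were −3.53 from WT_flfl (SE 0.70), −3.52 from het (SE 0.65) and −3.35 from M_KO (SE 0.65), at ranks 42, 47 and 44. Dpp4 reached the 10 CPM of the filter in 8 of 14 blastocysts, none of them MZ_KO. M_KO differed by −0.18 from WT_flfl (SE 0.65, limma adjusted p = 0.994) and by −0.17 from het (SE 0.61, limma adjusted p = 0.973), and the exact permutation p was 0.857 in both.

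Anpep, the M1 relative of Enpep, was scarce in all blastocysts. Its highest value was 6.04 CPM in M_KO 5 and its lowest 0 CPM in WT_flfl 9, where 0 reads allow up to 0.147 CPM. The group means were 3.24 ± 2.88 CPM in WT_flfl, 3.36 ± 1.34 in het, 3.44 ± 1.87 in M_KO and 3.10 ± 1.62 in MZ_KO (SD, n = 3, 4, 4 and 3). The groups overlapped fully. Anpep reached 10 CPM in 0 of 14 blastocysts and so did not enter the fit over all genes, which required 10 CPM or more in 3 or more embryos. Its MZ_KO values differed by 0.27 from WT_flfl on the log2(CPM + 1) scale, next to −6.43 for Enpep. In the other blastocyst comparisons the exact permutation p was 0.743 for M_KO against WT_flfl, 0.943 for M_KO against het and 0.8 for het against WT_flfl.

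Over the 3 genes that entered the fit, all were lower in MZ_KO against WT_flfl, where 13.2% of 9585 genes passed an adjusted p under 0.05 by limma, 4.84% as higher and 8.36% as lower. The matching shares were 17.9%, 7.02% and 10.8% against het and 11.8%, 3.74% and 8.09% against M_KO. Since the genes were chosen with these contrasts known, the shares are given for scale only. Enpep and Dpp4 also met the filter only through embryos outside MZ_KO. Per length of exon, which allows levels of different genes to be set side by side, WT_flfl blastocysts held 112 ± 24.4 CPM per kb of Alpl, 63.3 ± 10.02 of Enpep, 2.70 ± 0.693 of Dpp4 and 0.784 ± 0.697 of Anpep (SD, n = 3). Alpl and Enpep lay at the 95.9 and 92.3 percentiles of genes in the table. In MZ_KO the order was 9.88 ± 3.59 CPM per kb for Alpl, 0.784 ± 0.735 for Enpep, 0.750 ± 0.393 for Anpep and 0.125 ± 0.206 for Dpp4 (SD, n = 3), where Enpep and Anpep did not differ beyond their spread. Enpep thus went from the second of the 4 to the level of its scarce relative.

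**Figure D1:**
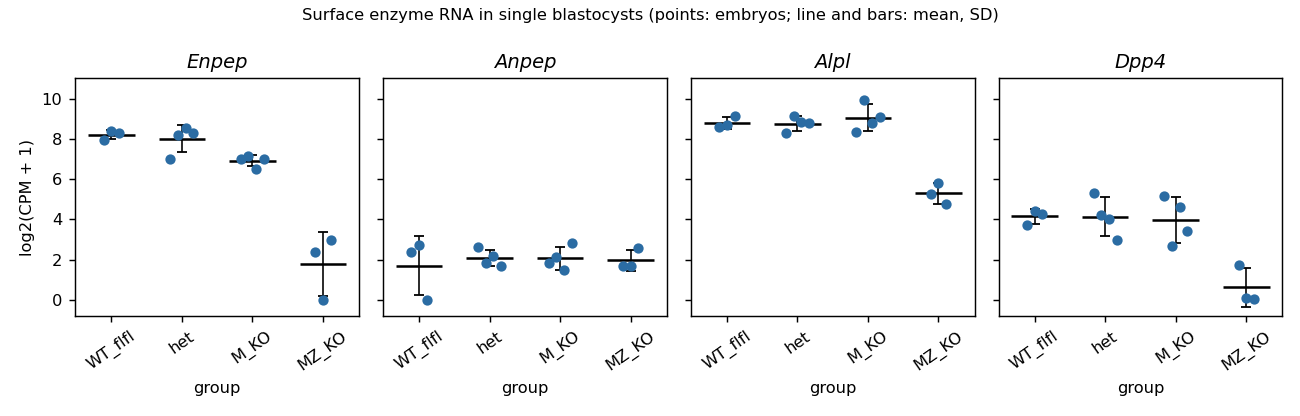
Level of each gene in single blastocysts, on the log2(CPM + 1) scale, by group; points are embryos, the line is the mean and the bars the SD (n = 3, 4, 4 and 3). The 3 MZ_KO embryos lie below all others for Enpep, Alpl and Dpp4, genes chosen with this known, and Anpep is low in every group. The share of all genes with such a separation was not counted. For Enpep the M_KO mean lies between, with het 3 among the M_KO embryos.

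Some cell type markers also differed in MZ_KO, whereas others of the same lists did not. Summed trophectoderm markers lay between 4128 and 5398 CPM in MZ_KO, between 7712 and 7990 CPM in WT_flfl, between 6131 and 10046 CPM in M_KO and between 5169 and 8310 CPM in het, with 0 of 12 markers at 0 in any group. Krt8 and Krt18, with means of 3264 and 2748 CPM in WT_flfl, weigh most in that sum. Of 11 trophectoderm markers tested against WT_flfl 0 rose and 4 fell, namely Eomes, Krt8, Id2 and Fgfr2. The rest did not pass, with Krt7 (1.00) and Tead4 (0.40) above 0. Cdx2 (−0.60), Gata3 (−0.60), Gata2, Krt18 and Tfap2c lay below 0. Over all genes 4.84% rose and 8.36% fell. Krt8, the keratin of simple epithelia, fell from 3264 ± 207 to 1789 ± 223 CPM (log2 difference −0.87, limma adjusted p = 0.0103; SD, n = 3 per group). Of 8 epiblast markers 2 rose (Nanog and Dppa4) and 1 fell (Tdgf1), and of 8 primitive endoderm markers 0 rose and 3 fell (Gata4, Sox17 and Lamb1). The other primitive endoderm markers did not pass. Gata6 (0.12), Pdgfra (0.16) and Dab2 (0.07) lay above 0, and Lama1 and Col4a1 below. Gata4, a transcription factor of primitive endoderm, had a mean of 22.6 ± 14.4 CPM in WT_flfl embryos and 0.848 ± 1.47 CPM in MZ_KO (log2 difference −3.77, SE 0.74, limma adjusted p = 0.00332). Lamb1, a laminin chain of basement membranes, fell by 2.89 (SE 0.48, limma adjusted p = 0.00107). Summed primitive endoderm markers overlapped, between 832 and 1246 CPM in MZ_KO and 969.6 and 1161 CPM in WT_flfl. Summed epiblast markers lay between 1168 and 1416 CPM in MZ_KO and between 932 and 1196 CPM in WT_flfl. The part of cell makeup in the Enpep, Alpl and Dpp4 values was not tested.

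The other members of each enzyme family were measured to see how the 4 genes compare with their relatives. Of the 9 other M1 aminopeptidases 5 were tested, and in MZ_KO against WT_flfl 0 rose and 1 fell. That gene was Rnpepl1, an aminopeptidase B relative, which went from 38.7 ± 15.3 to 6.10 ± 4.05 CPM (log2 difference −2.57, SE 0.45, limma adjusted p = 0.00157). It also fell against het (−2.24) and M_KO (−2.03). Rnpep itself, aminopeptidase B, had 354 ± 40.7 CPM in MZ_KO and 364 ± 110 CPM in WT_flfl, and the ubiquitous Npepps had 55.9 ± 3.85 and 66.8 ± 20.8 CPM (SD, n = 3 each). The median log2 difference of the 5 was −0.21, against −0.05 over all 9585 genes, of which 4.84% rose and 8.36% fell. Of 9 relatives of Dpp4 and other prolyl peptidases 6 were tested, 0 rose and 1 fell. Dpp8, a cytosolic member of the same family, went from 17.6 ± 13.7 to 1.03 ± 1.79 CPM (−3.28, SE 0.63, limma adjusted p = 0.00286), a call lost with limma-voom (adjusted p = 0.283). Cytosolic Prep, at 646 ± 137 CPM in WT_flfl and 435 ± 133 in MZ_KO, passed in the comparison with het alone (−0.64, limma adjusted p = 0.0265). The median of the 6 was −0.44.

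Among alkaline phosphatases, 1 of the other 3 genes was tested. Alppl2, the embryonic alkaline phosphatase known from cleavage stages, had 864 ± 430 CPM in WT_flfl and 482 ± 104 CPM in MZ_KO blastocysts (SD, n = 3 each; log2 difference −0.76) and did not pass in any of the 9 comparisons. The intestinal genes Alpi and Akp3 were not analysed here. Per length Alppl2 exceeded Alpl in both groups, with 383 CPM per kb in WT_flfl and 214 CPM per kb in MZ_KO. In morulae the gap was wider, with Alppl2 at 2024 CPM per kb in het, 1639 in del and 2234 in MZKO, where Alpl had 8.92, 5.34 and 12.9.

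Of 37 other enzymes with their active site outside the cell, 16 were tested against WT_flfl in MZ_KO blastocysts, of which 1 rose and 4 fell (median −0.67). Over all genes 4.84% rose and 8.36% fell (median −0.05). Tmprss2, a serine protease of epithelial surfaces, fell from 214 ± 84.1 to 48.6 ± 10.1 CPM (−2.04, SE 0.28, limma adjusted p = 2.21e-04). Entpd1 (CD39), which hydrolyses extracellular ATP, fell from 49.1 ± 12.97 to 4.49 ± 3.72 CPM (−3.56, SE 0.63, limma adjusted p = 0.00163), a call lost with limma-voom (adjusted p = 0.123). The matriptase gene St14 (−1.03) and the neprilysin relative Mmel1 (−2.26) also fell. Without single embryos both calls were lost, St14 without MZ_KO 2, MZ_KO 6 or WT_flfl 7 (limma adjusted p = 0.0566, 0.0659 and 0.0511) and Mmel1 without MZ_KO 7, WT_flfl 1 or WT_flfl 7 (0.0816, 0.0900 and 0.1003). Cpm, a GPI-anchored carboxypeptidase, went the other way, from 11.6 ± 7.98 to 63.4 ± 18.3 CPM (2.62, SE 0.55, limma adjusted p = 0.00501). Tmprss2 also fell by 2.36 on the log2 scale against M_KO, where 1 rose and 5 of the 16 fell, and against het 1 rose and 3 fell. The shares of all genes were 3.74% higher and 8.09% lower against M_KO, and 7.02% and 10.8% against het.

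The apical membrane list asked whether the scaffold of microvilli moved beside these enzymes. Of 24 genes 12 were tested against WT_flfl, of which 1 rose and 3 fell (median −0.62). Over all 9585 genes 4.84% rose and 8.36% fell (median −0.05). Ezr, the linker of actin to the apical membrane, fell from 158 ± 69.7 to 29.9 ± 8.13 CPM (−2.29, SE 0.33, limma adjusted p = 2.62e-04). Its relative Msn fell from 301 ± 46.9 to 90.5 ± 79.8 CPM (−2.05, limma adjusted p = 0.00368). Slc9a3r1, the scaffold also called EBP50 that binds ezrin, fell from 271 ± 9.16 to 121 ± 9.11 CPM (−1.16, limma adjusted p = 0.00197). All 3 also fell against het (−2.82, −2.07 and −0.93) and M_KO (−2.28, −1.64 and −0.83). The actin bundler Fscn1 rose by 1.71 (limma adjusted p = 0.0182), a call lost without MZ_KO 6 or WT_flfl 9 (0.0814 and 0.0674). The rest did not pass against WT_flfl. Rdx, another relative of Ezr (0.18), Lrp2 (0.25), Dab2 (0.07) and Baiap2l1 (0.22) lay above 0, and Pdzk1, Prom1, Myo6 and Cubn below.

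Genes around the substrates of Alpl were counted in the same way. For scale, 4.84% of all genes rose against WT_flfl and 8.36% fell (median −0.05). Of 11 genes of phosphate, pyrophosphate and vitamin B6 handling 10 were tested against WT_flfl, of which 0 rose and 4 fell (median −0.36). Ppa2, the mitochondrial inorganic pyrophosphatase, fell from 69.6 ± 11.3 to 2.91 ± 2.69 CPM (−4.37, SE 0.39, limma adjusted p = 2.51e-06). Ank, which passes pyrophosphate or ATP out of the cell, fell from 348 ± 33.7 to 123 ± 36.9 CPM (−1.53, SE 0.19, limma adjusted p = 7.45e-05). The phosphate importer Slc20a2 fell by 2.22. Of 28 genes that build or attach GPI anchors 26 were tested, 1 rose and 4 fell (median −0.27). Pigo, which adds an ethanolamine phosphate to the anchor, fell from 46.1 ± 6.18 to 4.36 ± 5.04 CPM (−3.71, SE 0.56, limma adjusted p = 4.36e-04). Pgap1, which trims the anchor once attached, fell by 3.44 (limma adjusted p = 0.00235), a call lost with limma-voom (adjusted p = 0.146). Pigh fell by 1.34 and Dpm1 by 0.82, while Pigl rose by 0.90. The Dpm1 call was lost without MZ_KO 7 or WT_flfl 9 (limma adjusted p = 0.0587 and 0.0659) and the Pigl call without WT_flfl 1 (0.0533). Of 8 genes of the angiotensin system, whose peptides Enpep trims, 2 were tested and 0 passed against WT_flfl or M_KO. Against het 1 fell, Agtrap, which encodes a protein bound to an angiotensin receptor, from 168 ± 29.1 to 107 ± 43.2 CPM (−0.70, SE 0.23, limma adjusted p = 0.0443; SD, n = 4 and 3). That call was lost without MZ_KO 2 or 6 or without het 5, 6 or 8, whereas 1 gene of this list fell against WT_flfl and against M_KO without MZ_KO 7. The precursor Agt and its receptors Agtr1a, Agtr1b and Agtr2 were not analysed here in blastocysts. In M_KO against WT_flfl, M_KO against het and het against WT_flfl, 0 genes of these 8 lists passed by limma.

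**Figure D2:**
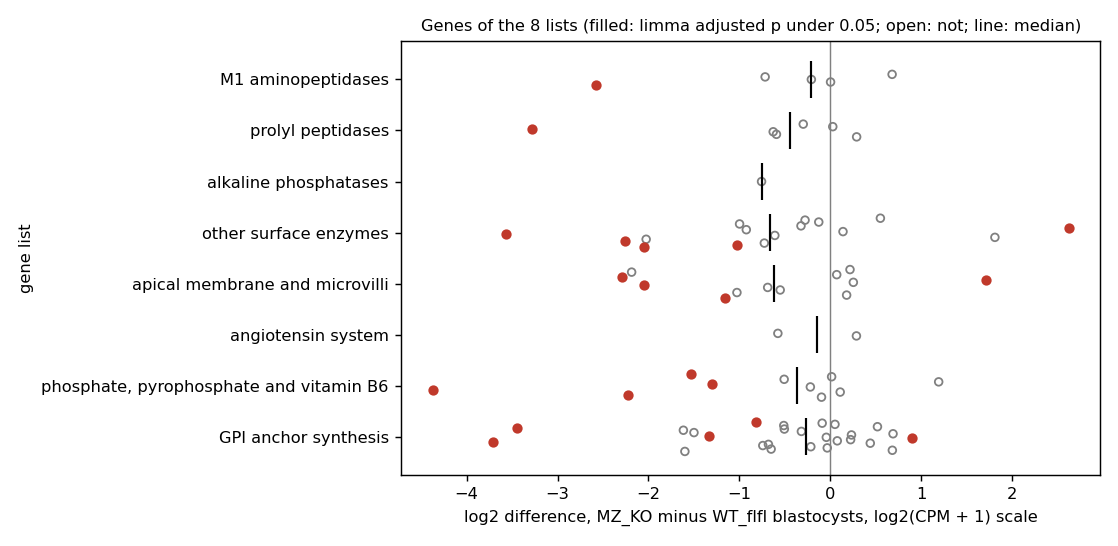
Log2 difference of every tested gene of the 8 lists between MZ_KO and WT_flfl blastocysts, on the log2(CPM + 1) scale; filled points passed a limma adjusted p under 0.05, open points did not, and the line is the list median. Called genes are a minority of each list, and most of them lie below 0. Over all genes 4.84% were higher and 8.36% lower.

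Genes whose blastocyst pattern was most like each enzyme were found by the smallest root mean square (RMS) difference of centred log2(CPM + 1) values over the 14 embryos. For Enpep they were Gfm1 (RMS 0.71), Ext2 (0.71), Ttc5 (0.84), Sh3bp5 (0.89) and Mrpl23-ps1 (0.92), where the median over all genes was 2.58. For Alpl they were Mrps2 (0.43), Ppa2 (0.45), Got2 (0.48), Tex261 (0.51) and Mbnl3 (0.52), against a median of 1.58. Ppa2 is also in the pyrophosphate list. The search includes the MZ_KO embryos, so both mentions of Ppa2 draw on the same low MZ_KO values. A link between Ppa2 and Alpl was not tested. For Dpp4 they were Sema5a (0.62), Alg5 (0.68), Gm19680 (0.73), Nr2c1 (0.74) and Shcbp1 (0.75), against a median of 1.67. The 3 sets have no gene in common, but they are short, and the overlap expected by chance was not computed. The RMS difference also grows with a mismatch in the size of change. On the log2(CPM + 1) scale the SD over the 14 embryos was 2.66 for Enpep, 1.59 for Alpl and 1.69 for Dpp4. The lack of overlap therefore does not show that the 3 enzymes follow different patterns.

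Within 500 kb of the 4 starts 22 neighbouring genes were tested in blastocysts. In MZ_KO 3 of them (13.6%) passed against WT_flfl, beside 13.2% of all genes tested, 3 against het, beside 17.9%, and 5 (22.7%) against M_KO, beside 11.8%. No test of these shares was made. Around Enpep 2 genes were tested, of which 0 passed, and the nearest was Elovl6, a fatty acid elongase 200 kb away (log2 difference against WT_flfl 0.19, SE 0.17, limma adjusted p = 0.511). The single tested neighbour of Dpp4, Gca, differed by 0.71 (SE 0.31, limma adjusted p = 0.139) at 252 kb. Of 5 tested neighbours of Alpl 1 rose and 1 fell in each of the 3 MZ_KO comparisons. Usp48, a deubiquitinase gene 203 kb away, fell by 0.59 against WT_flfl (SE 0.17, limma adjusted p = 0.0284). Hspg2, which encodes the basement membrane proteoglycan perlecan and lies 328 kb away on the same side, rose by 3.94 (SE 0.73, limma adjusted p = 0.00224), by 3.21 against het and by 3.28 against M_KO. The nearest gene on the other side, Eif4g3, differed by 0.18 (limma adjusted p = 0.841). Around Anpep 14 genes were tested against WT_flfl and 1 rose, Idh2, a mitochondrial isocitrate dehydrogenase (0.56, limma adjusted p = 0.0363). Idh2 also rose against het (0.83, limma adjusted p = 0.00212) and against M_KO (0.78, limma adjusted p = 0.00444). Against M_KO 2 further neighbours of Anpep fell, Fanci, a Fanconi anaemia DNA repair gene (−1.43, limma adjusted p = 0.0323), and Ngrn (−1.35, limma adjusted p = 0.0464). Its nearest neighbours Ap3s2 (0.06) and Ticrr (−0.09) did not pass. Hspg2, Idh2, Fanci and Ngrn were named after their values were seen.

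**Figure D3:**
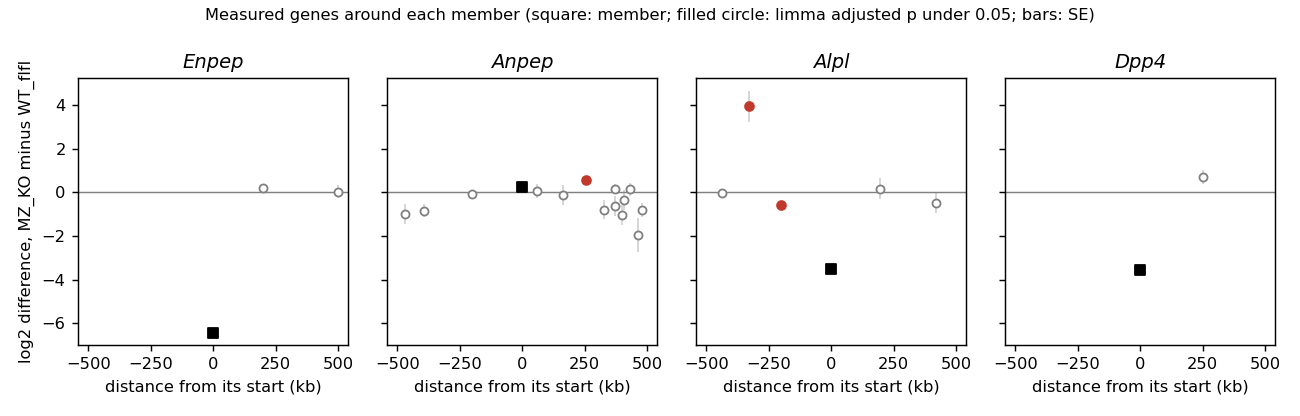
Log2 difference between MZ_KO and WT_flfl blastocysts, on the log2(CPM + 1) scale, against distance in kb along the chromosome from each gene's start; the square is the gene itself, filled circles passed a limma adjusted p under 0.05 and bars are the SE. Enpep, Alpl and Dpp4, chosen with this contrast known, lie far below their few tested neighbours (2 for Enpep, 5 for Alpl and 1 for Dpp4). Hspg2 stands above the rest near Alpl.

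In morulae the 4 genes were low and scattered from embryo to embryo. Enpep, so abundant in blastocysts, stood at 18.1, 0 and 21.6 CPM in het 1, 5 and 7. It stood at 5.98, 9.57, 0 and 11.03 CPM in del 2, 3, 4 and 6. The 6 MZKO embryos ran from 0 over a median of 2.49 to 21.7 CPM. Embryos with 0 reads occurred in each group, which allows up to 0.168 CPM in het 5, 0.216 in del 4 and 0.235 in MZKO 3. All groups overlapped. The log2 difference of MZKO was −1.22 from het (SE 1.25, limma adjusted p = 0.854, exact permutation p = 0.524) and −0.76 from del (SE 1.14, limma adjusted p = 0.881, exact permutation p = 0.562), and that of del from het was −0.47 (SE 1.35, limma adjusted p = 0.999, exact permutation p = 0.686). The intervals of 2 SE were wide, from −3.72 to 1.27 for MZKO against het.

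Alpl spread over a wide range within every morula group. Het 1, 5 and 7 held 21.4, 37.6 and 48.9 CPM, and del 2, 3, 4 and 6 held 14.7, 52.3, 15.02 and 4.06 CPM. The MZKO embryos ran from 8.84 over a median of 39.6 to 105 CPM. The highest 2 values, 105 and 96.3 CPM, were in MZKO 2 and 8, and all groups overlapped. MZKO differed from del by 1.30 (SE 0.65), which did not pass (limma adjusted p = 0.635, exact permutation p = 0.162), and from het by 0.19 (SE 0.71, limma adjusted p = 0.970). Del differed from het by −1.12 (SE 0.77, limma adjusted p = 0.999, exact permutation p = 0.229).

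Anpep, scarce in blastocysts, was the most abundant of the 4 per length in het morulae, although its spread there was nearly as large as its mean. Het 1, 5 and 7 held 99.4, 53.5 and 2.67 CPM. Del 2, 3, 4 and 6 held 22.7, 32.7, 35.3 and 11.03 CPM. MZKO embryos ran from 21.2 over a median of 25.2 to 79.4 CPM, the last in MZKO 1. All but het 7 were above 10 CPM, and the groups overlapped. Per length the het means were 12.5 ± 11.7 CPM per kb for Anpep, 8.92 ± 3.43 for Alpl, 2.81 ± 2.46 for Enpep and 1.71 ± 1.94 for Dpp4 (SD, n = 3), and no neighbours in that order differed beyond their spread. MZKO differed by 0.21 from het (SE 0.76, limma adjusted p = 0.967) and by 0.37 from del (SE 0.69, limma adjusted p = 0.906), and del by −0.16 from het (SE 0.82, limma adjusted p = 0.999). The direction against het depends on single embryos, with −1.24 for MZKO without het 7.

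Dpp4 stood at 24.1, 8.28 and 0 CPM in het 1, 5 and 7, and 0 reads in het 7 allow up to 0.167 CPM. Del 2, 3, 4 and 6 held 9.18, 17.2, 16.5 and 1.16 CPM. MZKO embryos ran from 5.01 over a median of 11.5 to 43.1 CPM, the last again in MZKO 1. The groups overlapped. MZKO differed by 1.25 from het (SE 0.94, limma adjusted p = 0.782, exact permutation p = 0.333) and by 0.67 from del (SE 0.86, limma adjusted p = 0.858), and del by 0.57 from het (SE 1.01, limma adjusted p = 0.999). Without het 7 the difference of MZKO from het was −0.06.

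None of the 4 genes passed in any of the 3 morula comparisons. By limma 0.482% of 9953 genes passed in MZKO against het (0.412% higher, 0.0703% lower), 0.01% in del against het (all lower) and 0.181% in MZKO against del (0.141% higher, 0.0402% lower), and 862, 503 and 821 genes had an unadjusted p under 0.05. Over the 6 comparisons that the choice of genes did not use, 24 exact permutation tests were made. The lowest p was 0.0571, for Enpep in M_KO against WT_flfl and in M_KO against het. Of the 8 lists, 1 gene passed in morulae, the phosphate importer Slc20a1, which rose in MZKO against het from 63.9 ± 6.29 to 174 ± 42.1 CPM (1.41, SE 0.26, limma adjusted p = 0.0117; SD, n = 3 and 6).

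**Figure D4:**
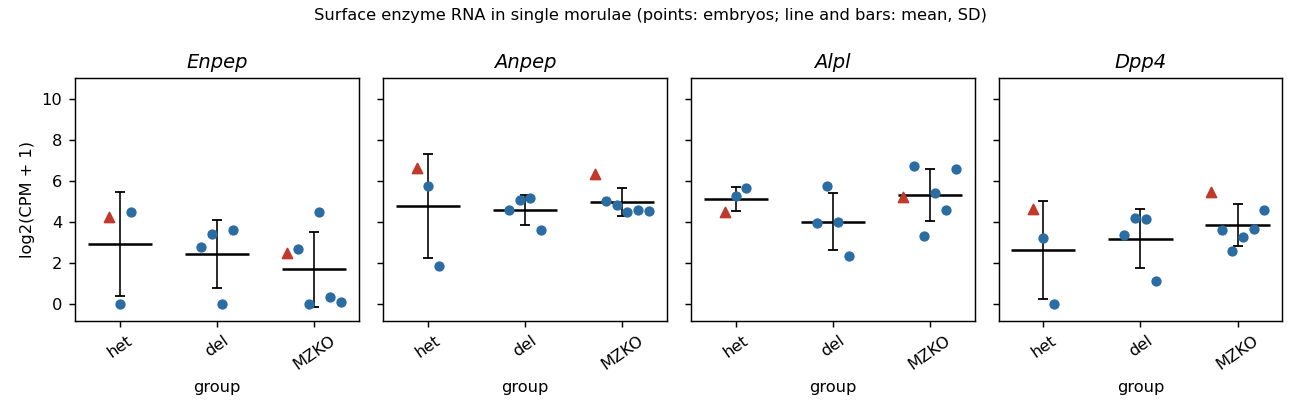
Level of each gene in single morulae, on the log2(CPM + 1) scale, by group; points are embryos, the line is the mean and the bars the SD (n = 3, 4 and 6), and red triangles mark MZKO 1 and het 1. All groups overlap for all 4 genes, and the triangles are the highest embryos for Anpep and Dpp4 in their groups.

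MZKO 1 and het 1 were also the morulae with the highest summed granulosa, oviduct and blood markers. Their summed granulosa markers were 274 and 777 CPM, where the other 11 morulae held at most 96.7 CPM. Their summed oviduct markers were 2654 and 1390 CPM, against at most 489 CPM elsewhere. Of 8 granulosa markers, Amh, Fshr and Cyp19a1 were at 0 or not listed in both groups, whereas 0 of 8 oviduct markers were. Only 2 granulosa markers passed the filter in morulae. Epcam, counted as an oviduct marker, was also abundant in WT_flfl blastocysts (1652 ± 72.8 CPM, SD, n = 3). Anpep and Dpp4 were both highest in these 2 embryos. The presence of other cells, and their part in those values, was not tested. Across the 13 morulae Anpep and Dpp4 varied together on the log2(CPM + 1) scale, the closest of the 6 pairs computed. Pearson's r was 0.86 (permutation p = 0.00031, adjusted over 6 pairs 0.00186) and Spearman's rho 0.65 (permutation p = 0.0195, adjusted p = 0.117). The r was 0.83 without MZKO 1 and het 1 (n = 11), 0.72 without het 7 and het 1, the embryos farthest from the median, 0.68 within the prefix C50 (n = 6) and 0.92 within N2 (n = 7). Het 7 and the shallow del 6, low in both genes, were not left out together for this pair. The correlations were added after the data were seen, so their p-values are a description. The other 5 pairs had r from −0.29 to 0.32 and did not pass (lowest permutation p = 0.288). In the pattern search over 13 morulae, Rdx, an ezrin relative, was closest to Anpep (RMS 0.45) and next for Dpp4 (0.55), after Gpx3 (0.42) and Tacc1 (0.44). The medians over all genes were 1.38 and 1.60. For Anpep the next were Tet3 (0.52), Adcy6 (0.54), AC102496.1 (0.55) and Gm48942 (0.55), and for Dpp4 Dbi (0.57) and Mob3b (0.59). Likeness was weaker for Enpep (Pacs1 0.99, Trdmt1 1.13, Trappc11 1.15, Dis3l 1.17 and Ggcx 1.17, median 1.93) and for Alpl (Usp25 0.64, Armt1 0.67, Ptpn4 0.71, Rsc1a1 0.72 and Dhx57 0.73, median 1.39).

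Levels at the 2 stages are set side by side with no test, because the tables were scaled separately and stage goes with sequencing batch. In het embryos Enpep had a mean of 13.2 ± 11.6 CPM in morulae and 274 ± 103 CPM in blastocysts, and Alpl 36.0 ± 13.9 and 441 ± 106 CPM (SD, n = 3 and 4). Anpep had 51.9 ± 48.4 and 3.36 ± 1.34 CPM, and Dpp4 10.804 ± 12.3 and 19.7 ± 13.8 CPM. In the MZ knockout groups, Enpep had 5.36 ± 8.37 CPM in MZKO morulae (n = 6) and 3.69 ± 3.46 CPM in MZ_KO blastocysts (n = 3), and Alpl 52.0 ± 39.4 and 39.9 ± 14.5 CPM. Anpep had 34.3 ± 22.4 and 3.10 ± 1.62 CPM in the same groups, and Dpp4 17.2 ± 14.1 and 0.791 ± 1.30 CPM (SD). The Enpep and Alpl levels of MZ_KO blastocysts were therefore within the range of single morulae, whereas Dpp4 in MZ_KO 6 and 7 was below every morula except het 7.

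**Figure D5:**
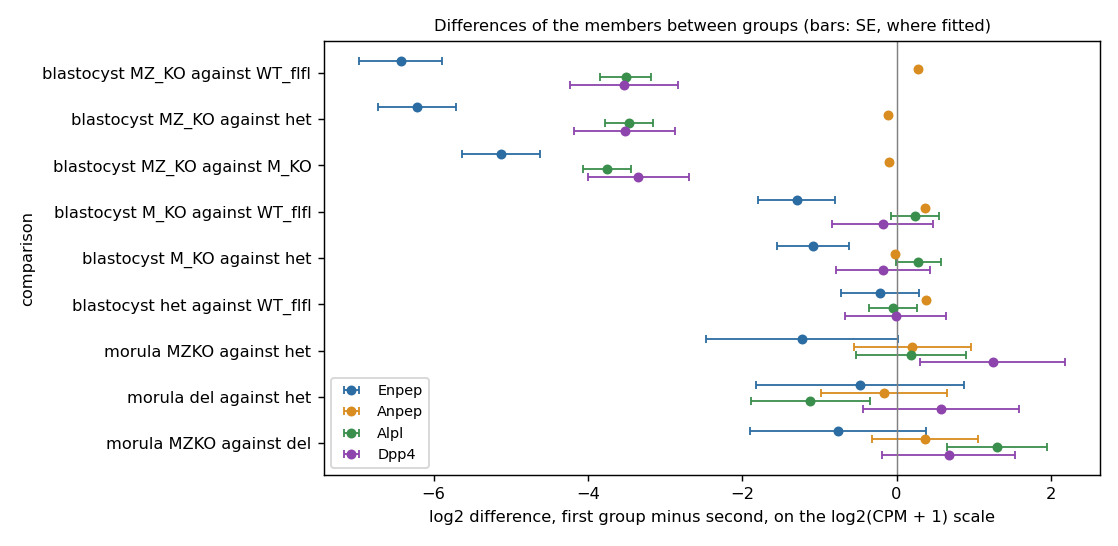
Log2 difference of each gene in the 9 comparisons, first group minus second, on the log2(CPM + 1) scale; bars are the SE where the gene entered the fit. Enpep, Alpl and Dpp4 lie between −6.43 and −3.35 in the 3 MZ_KO blastocyst comparisons and between −1.30 and 1.30 elsewhere.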

How the data were processed

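RNA of single whole mouse embryos was made into complementary DNA with a SMART-Seq kit for ultra low input and run on a HiSeq sequencer, per the labels' protocols. Such kits do not mark strand, so antisense reads count with the gene. The tools named in the submitters' processing notes are RSEM 1.3.1, Bowtie2 2.2.9 and cutadapt 1.14, with GRCm38 (mm10) as build. For the roles and settings of the tools, nothing is given in the sources used here. Log2 values, with 1 table per stage, were deposited by the authors. They had the form of log2 reads per 1000000 (CPM) after an offset of 0.5 reads, scaled within each table. Undoing the logarithm gave whole reads for 100% of values within 0.01 reads. For blastocysts 15582 genes were listed, and 16745 for morulae. Another 3 entries that name no mouse gene took at most 0.0113% of reads in a blastocyst and were left out. Of 28 labelled samples 27 had a column, and a repeat library of blastocyst het 3 was not analysed here.

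Tests used limma 3.58.1 in R 4.3.3 on log2(CPM + 1) with a trended moderated variance, all groups of a stage in 1 fit. Genes entered with 10 CPM or more in 3 or more embryos, 9585 in blastocysts and 9953 in morulae. Benjamini-Hochberg adjustment ran over those genes, with a call at an adjusted p under 0.05. Exact two-sided permutation tests over embryos used SciPy 1.17.1, and permutation p-values of correlations used 100000 resamples. Depth per embryo is given with the results. Per length levels divide CPM by the exon length of a gene in GENCODE M21. The labels do not say which embryos share a mother, so p-values measure only the spread between these embryos. Same-numbered embryos of M_KO and het had deviations correlated at −0.14 and −0.12, and those of MZKO and del at 0.08, −0.12, −0.04 and 0.14, so the numbers were not taken as pairs.

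The 4 genes, the 8 gene lists, the 6 marker lists and the alternatives were chosen with earlier results of these data known. Named were all 4 genes, up to 4 called genes per list with the lowest adjusted p, the 5 closest patterns for a gene with an SD of at least 1 over a table's embryos, and the nearest measured neighbour on each side within 500 kb. Some list genes that did not pass, such as Rnpep and Rdx, were named beside them. Limma-voom, and leaving out MZKO 1 with het 1, were added after seeing the data, as were the correlations. A called gene of the lists is counted but not reported by name here.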

Additional observations from a re-analysis of the deposited data

Results flagged for a closer look

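In 16 combinations of gene and group with at least 4 embryos, the highest and lowest embryo were compared with the rest by Dixon's gap ratio, and 2 embryos stood apart. Chance marks about 1 in 20 such groups where values are normally distributed. The ratio was taken on CPM, which is skewed for low genes, so that rate need not hold here. Enpep in morula MZKO 4 was 21.7 CPM, where the next of the 6 MZKO embryos held 5.40 CPM. The gap took up 0.751 of the group's range, above the 95% critical value for 6 samples. Anpep in morula MZKO 1 was 79.4 CPM, where the next MZKO embryo held 31.9 CPM, a gap of 0.816 of the range. MZKO 1 also held the highest granulosa, oviduct and blood marker sums of its group, and MZKO 4 the next highest blood marker sum (1347 CPM), and the part of either in these values was not tested.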

How the results depend on the processing

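For 33 differences of the 4 genes, 440 values were computed under other settings (pseudocount, filter, groups in the fit, left-out embryos, replicate block, limma-voom). Of these, 396 kept their direction and side of the threshold, 6 moved and 38 changed sign. Every change of sign was in a difference that did not pass. With limma-voom, which adds 0.5 reads rather than 1 CPM, the MZ_KO differences moved to −8.13, −7.95 and −6.81 for Enpep and to −6.35, −6.11 and −5.88 for Dpp4 (against WT_flfl, het and M_KO). Left-out embryos gave the following ranges where the sign changed. In M_KO against WT_flfl they were −0.067 to 0.46 for Alpl, −0.58 to 0.25 for Dpp4 and −0.48 to 0.87 for Anpep. In M_KO against het they were −0.019 to 0.51 for Alpl, −0.58 to 0.26 for Dpp4 and −0.27 to 0.18 for Anpep. In het against WT_flfl they were −0.39 to 0.12 for Enpep, −0.18 to 0.12 for Alpl, −0.41 to 0.37 for Dpp4 and −0.46 to 0.89 for Anpep. In morula MZKO against het they were −1.24 to 1.15 for Anpep, −0.14 to 0.59 for Alpl and −0.064 to 2.26 for Dpp4. In del against het they were −1.93 to 0.35 for Enpep, −1.61 to 0.78 for Anpep and −0.74 to 1.59 for Dpp4, and in MZKO against del −0.020 to 1.01 for Dpp4. Without MZKO 1 and het 1, Alpl in MZKO against het became −0.12, and in del against het Enpep became 0.20 and Anpep 0.78. Limma-voom gave 0.35 for Anpep in del against het. The cause of these changes was not tested.

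Counts of called genes in MZ_KO comparisons ran over left-out embryos from 783 to 1139 against WT_flfl (1265 with all), 1058 to 1603 against het (1711) and 711 to 1104 against M_KO (1133), and without WT_flfl 1 and het 6 they were 787 and 1011 against WT_flfl and het. In morulae MZKO against het gave 29 to 90 over left-out embryos and 24 with limma-voom (48), del against het 0 to 4 (1), and MZKO against del 2 with limma-voom (18). M_KO against WT_flfl gave 1 call without WT_flfl 1 and het 6, and het against WT_flfl gave 1 without WT_flfl 1. The Dpm1 call was also lost with only both groups in the fit (adjusted p = 0.0573). With the replicate number as a block, M_KO against het gave 2 calls (0 without) and MZKO against del 20, with 18 for the same embryos and no block. Under the block the Enpep difference of M_KO from het was −0.51. With 2 shared numbers in one comparison, and not every embryo closest to its own number in the other, the block says nothing of pairing. The tests on the recovered reads with edgeR and DESeq2 were not run. The depth of del 6 limits what can be seen there.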
